A study of Drosophila melanogaster with 136 samples.

Results

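The genes described here are mRNAs that wild-type (WT) Drosophila melanogaster embryos held at 0-2 h and still held at 2-4 h, and that were nearly gone from 8 h on. They were chosen on WT libraries of the CR43432 table by their CPM (the reads of a gene scaled to a common total of reads counted to genes), averaged over fly lines. A gene had to reach 20 CPM at 0-2 h, keep at least 0.5 of that level at 2-4 h, and fall to at most 0.1 of it in each of the windows 8-12 h, 12-16 h and 16-20 h. Among the well-known egg genes smg, wisp, png, plu, gnu, bcd, swa, exu, osk, nos, pgc and grk, which were left out by name, 4 met these conditions (bcd, plu, smg and wisp). Of 17477 genes, 5316 outside the left-out ones reached 20 CPM at 0-2 h, and 54 met the whole rule.

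The series measured poly(A) RNA in staged embryos of fly lines labelled dora[A], dora[B] and CR43432, each with WT controls of its own, and in S2 cells, a cultured fly cell line. Embryos labelled dora[A] and dora[B] were collected at 8-12 h, 12-16 h and 16-20 h with 2 libraries per window, as were the WT embryos paired with each allele. CR43432 mutants and their WT had 2 libraries each at 8-12 h and 12-16 h and 1 each at 16-20 h, and this WT also had 2 libraries each at 0-2 h and 2-4 h. In S2 cells, 3 dora clones stood beside 3 WT clones, and 3 WT clones treated with Ago1 RNAi stood beside the same 3 clones treated with GFP RNAi. The RNAi set also held 3 dora clones under each of these treatments, and their libraries were part of the same fit. Fly lines or clones served as the replicates, so the p-values measure only the spread between these lines and clones. The sources used here give neither the nature of the dora alleles, nor the genetic background of the controls, nor any sorting of the embryos.

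Early Drosophila development runs on mRNAs that the mother places in the egg, while the genome of the embryo is silent. These maternal mRNAs are then removed in waves, an early one carried out by proteins of maternal origin and a later one that needs transcription in the embryo and involves miRNAs among other factors. Dora corresponds to mammalian ZSWIM8, which brings Argonaute to a cullin-based ubiquitin ligase so that certain miRNAs are destroyed when they pair with a trigger transcript.

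The mRNA libraries of the tables used had depths of 8.96 to 35.5 M reads counted to genes. Dora mRNA, in the order of the windows, had 528, 537, 395, 283, 200 and 287 CPM in dora[B] libraries against 767, 851, 414, 497, 341 and 375 CPM in their WT. It had 539, 626, 436, 388, 340 and 322 CPM in dora[A] libraries against 682, 776, 424, 438, 288 and 326 CPM in their WT. It fell by 0.65 on the log2 scale in dora[B] embryos over the 3 windows (SE 0.14, adjusted p = 0.00327 with edgeR's quasi-likelihood test and Benjamini-Hochberg adjustment over all genes tested), and its change in dora[A] embryos was -0.11 (SE 0.11, adjusted p = 0.834). In the dora[A] table, the replicate 1 libraries at 8-12 h and 12-16 h stood apart from their replicate 2 partners in the summed level of the 54 genes, at 1504 against 328 CPM and at 1023 against 149 CPM. Results that rest on these libraries are given with and without them.

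In the WT libraries used by the rule, the 54 genes summed to 10384 and 10854 CPM at 0-2 h, to 9862 and 13398 CPM at 2-4 h, to 352 and 698 CPM at 8-12 h, to 225 and 380 CPM at 12-16 h, and to 259 CPM in the single library at 16-20 h. These values chose the genes and are given as a description. The level at 2-4 h was below that at 0-2 h in both lines for 25 genes and above it in both lines for 16. Marf1, whose product regulates meiosis and mRNA stability in the oocyte, had the most reads, with 2057 and 1908 CPM at 0-2 h, 808 and 1422 CPM at 2-4 h, and 4.00 and 17.7 CPM at 8-12 h. The gene FBgn0267727, which has no name in the tables used here, followed with a mean of 1654 CPM at 0-2 h. The others of the 10 highest were muskelin (494 CPM), rig (388 CPM), spn-E (367 CPM), CG3679 (339 CPM), slam (321 CPM), AGO3 (289 CPM), Caf1-105 (273 CPM) and twe (249 CPM), as means at 0-2 h. CPM is not scaled by gene length, so this order is one of reads and not of molecules.

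A few of the genes go against the name of a maternal mRNA. In 5 of the 54 the mean at 2-4 h was over 2 times that at 0-2 h: bard (24.6 times), halo (15.6 times), bnk (13.5 times), slam (6.48 times) and Elba2 (2.63 times). The genes bnk (bottleneck) and slam act when the first cells form around the nuclei of the blastoderm, halo sets the direction of lipid droplet transport, and all of bnk, slam and halo are textbook early zygotic genes. At 0-2 h, halo stood at 4.78 and 49.0 CPM in the 2 lines, bnk at 1.91 and 41.04 CPM and bard at 6.43 and 50.0 CPM, so line 2 carried nearly all of their early level. By contrast slam had 209 and 434 CPM at 0-2 h, and Elba2, a DNA-binding subunit of an early insulator complex, had 131 and 174 CPM.

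Genes lay close to each limit of the rule. For the level at 0-2 h, bnk (21.5 CPM) and agt (23.0 CPM) were just inside and Lsm11 (17.8 CPM) and CG34214 (16.3 CPM) just outside. For the ratio of 2-4 h to 0-2 h, GstO1 (0.507) and Kots (0.518) were just inside, and CG11674 and CG9917 (both 0.476) just outside. For the highest late level over that at 0-2 h, dah (0.0993) and CG7840 (0.0933) were just inside, and CG4408 (0.101) and me31B (0.101) just outside.

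Of the 54 genes, 51 are annotated as protein-coding, CR14033 as a pseudogene and lncRNA:CR43836 as a long noncoding RNA, and FBgn0267727 was not found in the annotation. In the dm6 assembly, 13 lie on the X, 10 on 2L, 8 on 2R, 8 on 3L, 14 on 3R and none on chromosome 4. The X holds 24.5% of them and 18.4% of the genes with at least 20 CPM at 0-2 h. The annotated spans of 32 of the 53 located genes overlap another annotated gene. Since the strand setting of the counting is not given, reads of overlapping genes cannot be told apart. CG6985 (3R, 22741150 to 22743081) and vret (3R, 22742954 to 22745581) overlap each other.

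Of the 54 genes, 10 work in the piRNA pathway, in which small RNAs of the germline silence transposons, and this list was drawn up after the 54 genes were known. AGO3 (3L, 23554593 to 23689640) is a Piwi-family slicer, spn-E (3R, 15837419 to 15844415), qin, tej, vret, SoYb and BoYb are Tudor-domain proteins of the germline, and Hen1 methylates the ends of piRNAs. The products of rhi and moon act in the nucleus, where rhi binds piRNA clusters and moon helps to transcribe them. Among genes of egg and early embryo function, tor (2R, 7705183 to 7709184) encodes the receptor tyrosine kinase that patterns the embryo's ends, and twe (2L, 16259414 to 16261877) the Cdc25 phosphatase of meiosis. The products of dah and slam (2L, 6372388 to 6377284) are needed for the membrane furrows of the early embryo, muskelin (2R, 12628697 to 12632378) is part of an E3 ligase that removes translational repressors from the embryo, and bam drives differentiation of germline stem cell daughters.

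**Figure D1:**
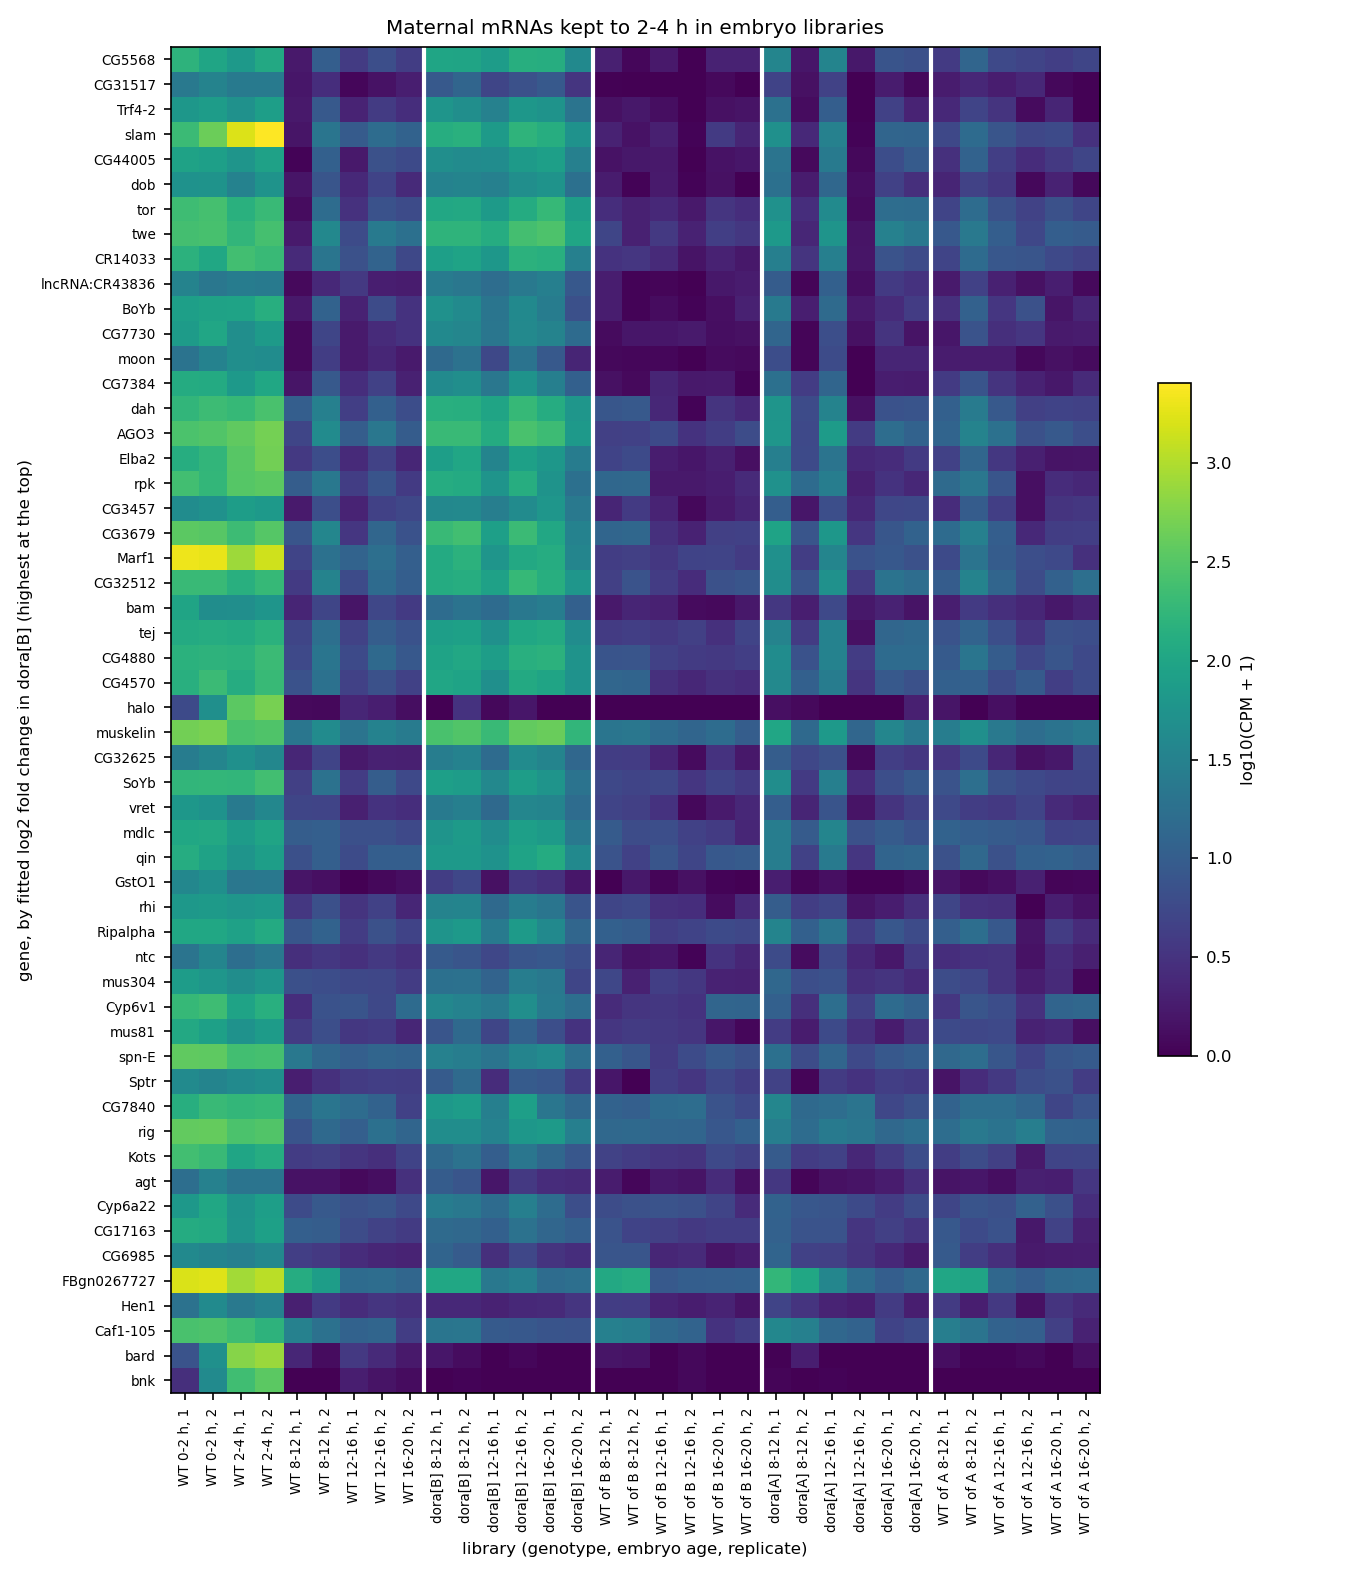
Level of each of the 54 genes (rows, log10 of CPM + 1 as colour) in each embryo library (columns). The blocks from the left are the WT libraries used by the rule, dora[B], WT paired with dora[B], dora[A] and WT paired with dora[A], each in order of embryo age. Rows run from the highest to the lowest fitted log2 fold change in dora[B], and the dora[B] block is brighter than its WT block for most genes.

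In dora[B] embryos, 49 of the 53 genes tested were called higher than in WT over the mean of 3 windows, beside 17.8% of all genes. Of the 53, 36 were called higher in every window, where 6.68%, 11.3% and 10.2% of all genes were in the single windows. The 53 include 6 genes that passed the filter on low counts only through dora[B] libraries. The 54 genes summed to 3233 and 3420 CPM in dora[B] embryos against 358 and 351 CPM in their WT at 8-12 h, to 1941 and 3970 CPM against 156 and 127 CPM at 12-16 h, and to 3528 and 1327 CPM against 149 and 134 CPM at 16-20 h. No dora[B] library overlapped a WT library in this sum. The ratio of the means was 9.38, 20.8 and 17.2 in the 3 windows. In bulk RNA, more of the embryos holding a transcript and more of it per embryo cannot be told apart.

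Over the mean of the 3 windows, 49 of the 53 genes tested rose in dora[B] embryos and none fell, where 17.8% of all 11424 genes tested rose and 24.7% fell. Among the 53, 6 passed the filter on low counts only through dora[B] libraries (halo, moon, GstO1, bard, Trf4-2 and CG31517), so the count was also made without them. Of the 47 genes that passed in the WT libraries alone, 45 rose, and without any filter 48 of 54 rose, beside 15.6% of all genes. In 45 of the 54 genes both dora[B] libraries were above both WT libraries in each of the 3 windows, which held for 15.7% of all genes tested. The median log2 fold change was 4.40, or 4.16 with halo, which had no read in WT, set at its lower bound, beside a median of -0.38 over all genes. The changes that passed ranged from 0.55 for FBgn0267727 to 6.98 for CG5568.

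**Figure D2:**
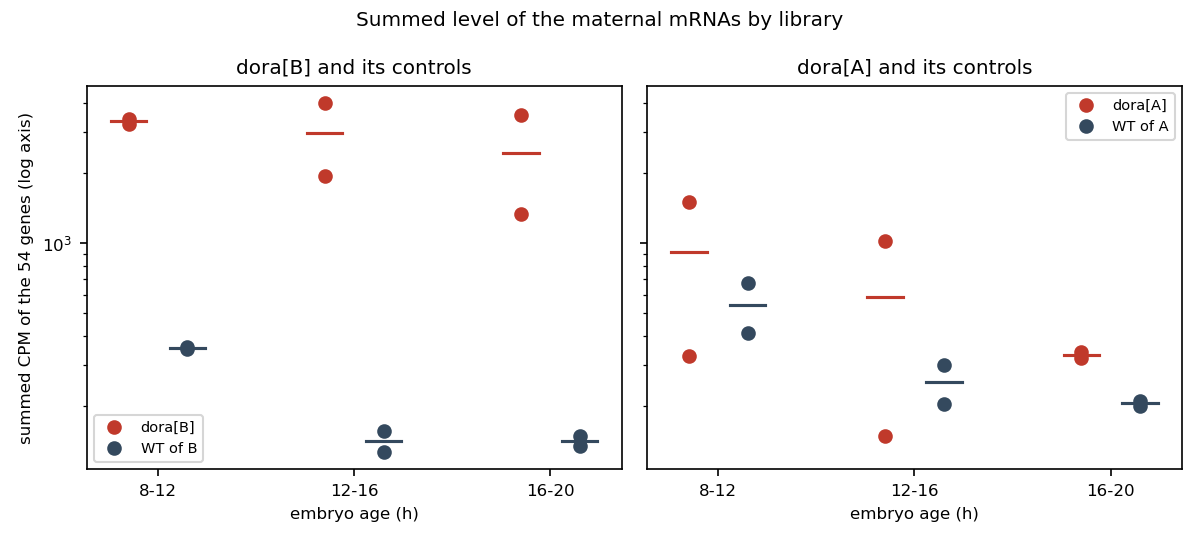
Summed CPM of the 54 genes (log axis) by embryo age in dora[B] and its WT (left) and dora[A] and its WT (right). Each point is a library and each bar the mean of 2. All dora[B] libraries lie between 1327 and 3970 CPM, above their WT libraries (127 to 358 CPM), and dora[A] libraries are spread from 149 to 1504 CPM.

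The 10 largest changes in dora[B], among genes whose libraries did not overlap in any window, were those of CG5568, CG31517, Trf4-2, slam, CG44005, dob, tor, twe, CR14033 and lncRNA:CR43836. The receptor gene tor had 109, 110, 69.4, 123, 190 and 76.8 CPM in dora[B] libraries (2 each at 8-12, 12-16 and 16-20 h), against 1.78, 1.04, 1.49, 0.69, 2.38 and 1.77 CPM in WT. Its log2 fold change was 6.08 (SE 0.32, adjusted p = 3.49e-06 with edgeR's quasi-likelihood test and Benjamini-Hochberg adjustment). For twe the dora[B] libraries held 159, 161, 126, 238, 279 and 99.3 CPM and the WT libraries 4.11, 1.04, 2.70, 1.12, 3.32 and 2.57 CPM (6.01, SE 0.44, adjusted p = 1.79e-05). Both genes were high in every dora[B] library, and neither fell with embryo age in both replicates.

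The strongest change was that of CG5568, at 98.1, 95.6, 74.8, 134, 129 and 40.0 CPM in dora[B] libraries and at 0.98, 0.15, 0.73, 0, 1.13 and 1.10 CPM in WT libraries (6.98, SE 0.57, adjusted p = 3.46e-05). Trf4-2, a poly(A) polymerase of the noncanonical kind, had 58.7, 47.0, 29.9, 62.9, 54.3 and 19.3 CPM in dora[B] libraries and at most 0.67 CPM in WT (6.73, SE 0.45, adjusted p = 5.24e-06). dob, a lipase related to the lipid droplet lipase brummer, changed by 6.31 (SE 0.64), CG44005 by 6.56 (SE 0.47), CR14033 by 6.00 (SE 0.49), CG31517 by 6.80 (SE 0.70) and lncRNA:CR43836 by 5.87 (SE 0.54). CG31517 had 2.34 to 11.8 CPM in dora[B] libraries and 0 to 0.23 CPM in WT libraries. Trf4-2 and CG31517 were tested only because of dora[B] libraries, and their place by fold rests on few WT reads. The folds of dob, CG44005 and lncRNA:CR43836 also rest on few WT reads, at 0 to 0.81, 0 to 0.69 and 0 to 0.89 CPM in WT libraries. So does that of CG5568, at 0 to 1.13 CPM there, and CR14033 had 0.52 to 2.46 CPM. CR14033 (2L, 5242699 to 5244239) overlaps tkv, lncRNA:CR43836 (X, 8972908 to 9048991) overlaps rdgA and 4 other genes, and twe overlaps EndoGI.

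The early zygotic gene slam also rose, at 130, 144, 70.8, 163, 129 and 53.6 CPM in dora[B] libraries against 1.14, 0.45, 1.00, 0.09, 2.74 and 1.25 CPM in WT libraries (6.64, SE 0.49, adjusted p = 1.83e-05). These dora[B] levels are below the 209 and 434 CPM of WT at 0-2 h, and WT at 2-4 h held 1655 and 2510 CPM. Of the other genes named for an increase at 2-4 h, halo, bnk and bard were at or near 0, and Elba2 was not. In dora[B] libraries, halo was between 0 and 2.15 CPM, bnk between 0 and 0.07 CPM and bard between 0 and 0.61 CPM. Elba2 rose by 5.38 (SE 0.36). By window, halo had 0 and 2.15, 0.2 and 0.61, and 0 and 0 CPM in dora[B] libraries, so its highest value stood in 1 library whose partner had 0. Over the group, 43 halo reads against none in WT amount to at least 14.9-fold, with the floor set at 3 reads over the WT group. This fold rests largely on that library, and halo was tested only because of dora[B] libraries. It did not pass the test (adjusted p = 1 with edgeR).

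Of all genes tested, 17.8% rose and 24.7% fell in dora[B] embryos, and 49 of the 53 genes tested under the rule rose. Of the 10 piRNA pathway genes, 9 rose, near the rate of the 53. The largest changes were those of BoYb (5.86, SE 0.58), moon (5.75, SE 0.64) and AGO3 (5.44, SE 0.38, adjusted p = 1.2e-05), followed by tej (4.62), SoYb (3.78), vret (3.74), qin (3.48), rhi (3.28) and spn-E (2.06, SE 0.28, adjusted p = 0.000184). AGO3 stood at 199, 202, 123, 263, 216 and 67.2 CPM in dora[B] libraries against 3.43, 3.57, 4.88, 2.16, 3.13 and 5.08 CPM in WT libraries. For spn-E the values were 30.4, 26.5, 19.2, 33.3, 41.8 and 16.2 CPM in dora[B] libraries against 10.2, 7.22, 2.87, 4.92, 7.78 and 6.03 CPM in WT libraries. The methyltransferase gene Hen1 had 1.46, 1.49, 1.1, 1.5, 1.53 and 2.34 CPM in dora[B] libraries and 3.18, 2.98, 1.18, 0.86, 1.21 and 0.51 CPM in WT libraries, and its change was 0.02 (SE 0.45, adjusted p = 1). The gene moon was among those tested only because of dora[B] libraries, with 1.27 to 18.6 CPM there against 0 to 0.27 CPM in WT, so its fold rests on few WT reads. In the 20 other genes of the piRNA list, 9 rose and 1 fell (tud, -0.51), with a median of 0.80, to be read against the same shares of all genes. Among them mael (3.97), nxf2 (2.90), Panx (2.16) and aub (2.34) rose, and zuc, the nuclease that cuts piRNA precursors, rose by 4.72. The values for armi (-0.17), del (-0.19) and vas (-0.46) did not pass the test.

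For muskelin, dora[B] libraries held 264, 297, 203, 385, 414 and 173 CPM and WT libraries 20.1, 21.1, 14.8, 11.7, 14.8 and 8.97 CPM (4.16, SE 0.26, adjusted p = 4.52e-06). Marf1 had 118, 152, 58.8, 110, 125 and 33.8 CPM in dora[B] libraries and 3.18, 3.42, 2.53, 3.88, 3.99 and 2.87 CPM in WT libraries (4.75, SE 0.34, adjusted p = 8.71e-06). The cytoskeletal gene dah changed by 5.58 (SE 0.42), the sodium channel family gene rpk by 4.94 (SE 0.34) and the germline gene bam by 4.62 (SE 0.43). The DNA repair genes mus304, which encodes the partner of the ATR kinase, mus81, a nuclease, and agt, which removes alkyl groups from DNA, rose by 2.86, 2.10 and 1.92. rig, the fly Gemin5 gene, rose by 1.95 (SE 0.25, adjusted p = 0.000131).

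The 4 genes tested that did not rise were Caf1-105, Hen1, halo and bard, and bnk was too low to be tested. Caf1-105, a subunit of the chromatin assembly factor that follows replication, had 20.0, 20.4, 8.32, 7.58, 6.66 and 6.34 CPM in dora[B] libraries and 29.3, 26.2, 13.7, 10.96, 2.19 and 3.09 CPM in WT libraries. Its change of -0.05 (SE 0.18, adjusted p = 0.877) combines lower values at 8-12 h and 12-16 h with higher ones at 16-20 h. FBgn0267727 rose least, with 106, 106, 22.0, 27.9, 14.98 and 16.2 CPM in dora[B] libraries and 113, 125, 7.89, 9.41, 9.81 and 10.1 CPM in WT libraries (0.55, SE 0.14, adjusted p = 0.00798).

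**Figure D3:**
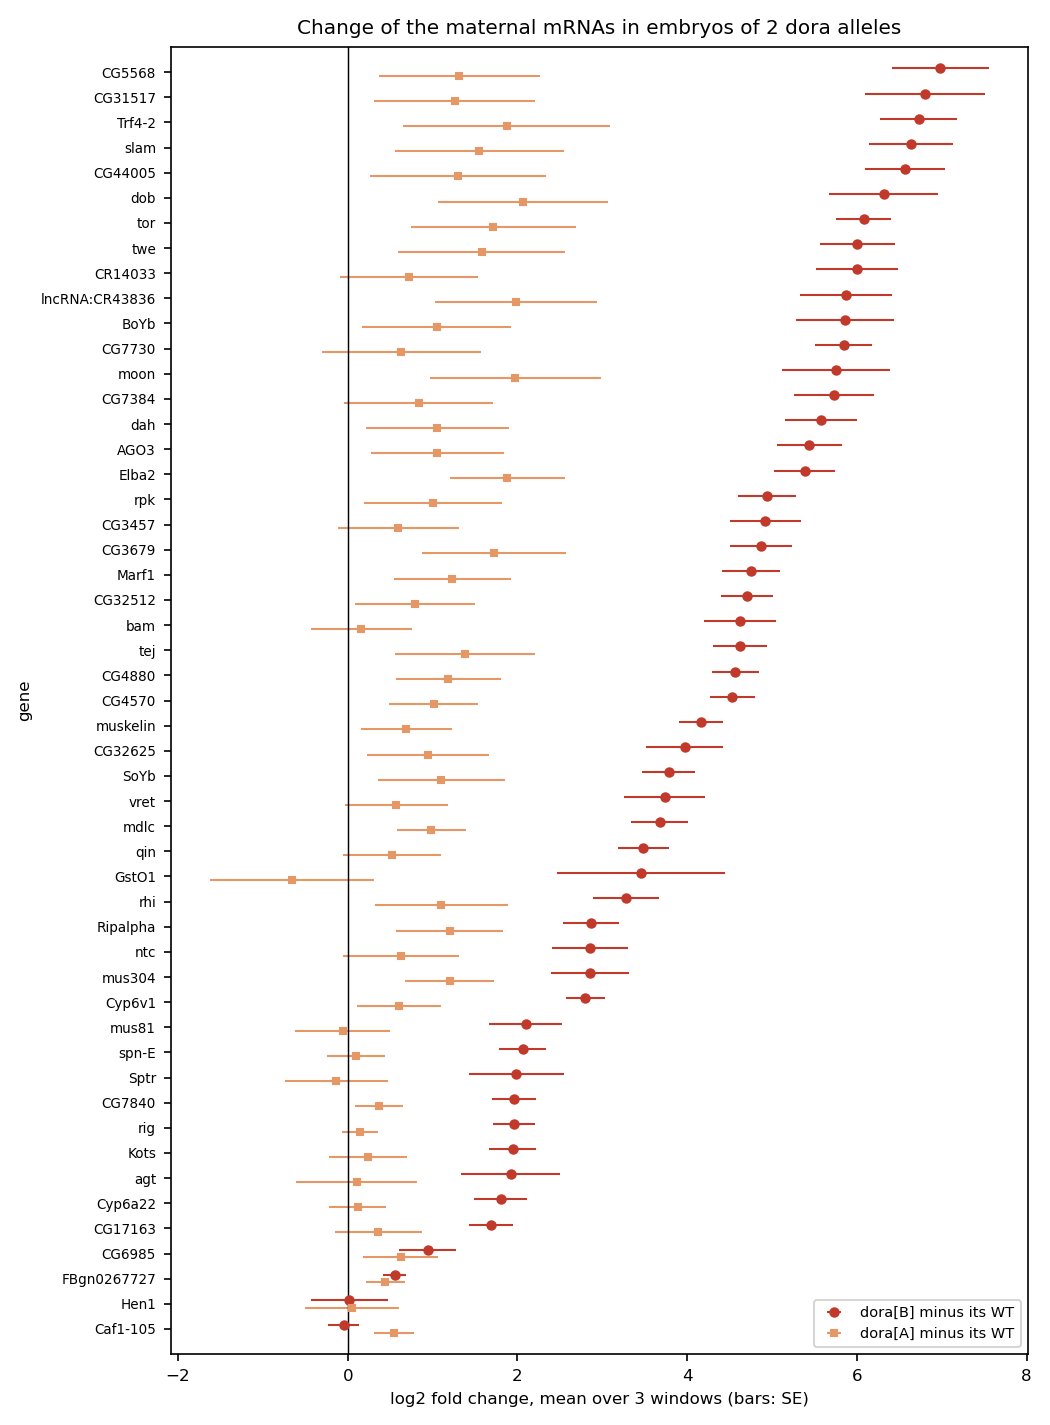
Log2 fold change (mean over 3 windows, bars are SE) of each tested gene in dora[B] (circles) and dora[A] (squares), each against its own WT. halo, bard and bnk are not drawn. In dora[B] the genes run from -0.05 (Caf1-105) to 6.98 (CG5568), and the SE bars of dora[A] are wider for most genes.

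Set beside the level of WT at 0-2 h, which comes from another table, the 54 genes differed in how much of it dora[B] embryos held. Averaged over the 6 late libraries, the median gene stood at 35.0% of the 0-2 h level in dora[B] embryos and at 1.98% in their WT. In dora[B] embryos 43 of the 54 genes were at or above 10% and 17 at or above 50%, where none reached 10% in WT. The rule itself asked for at most 10% of this 0-2 h level in other WT libraries of these ages. The low WT percents thus largely follow from how the genes were chosen. CG32625 held 89.6%, CG5568 74.96%, twe 71.2%, qin 69.4%, tej 66.4%, AGO3 61.6%, muskelin 58.6% and tor 48.1%. Others held less, with 5.03% for Marf1, 2.95% for FBgn0267727, 7.60% for spn-E and 12.2% for rig in dora[B] embryos, against 0.17%, 2.78%, 1.77% and 2.93% in WT. Across the 54 genes, the mean level in dora[B] embryos had a Spearman's rho of 0.75 with the WT level at 0-2 h and of 0.54 with that at 2-4 h. In WT paired with dora[B] the same values were 0.72 and 0.38. Genes are not independent, and all these points share their libraries.

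**Figure D4:**
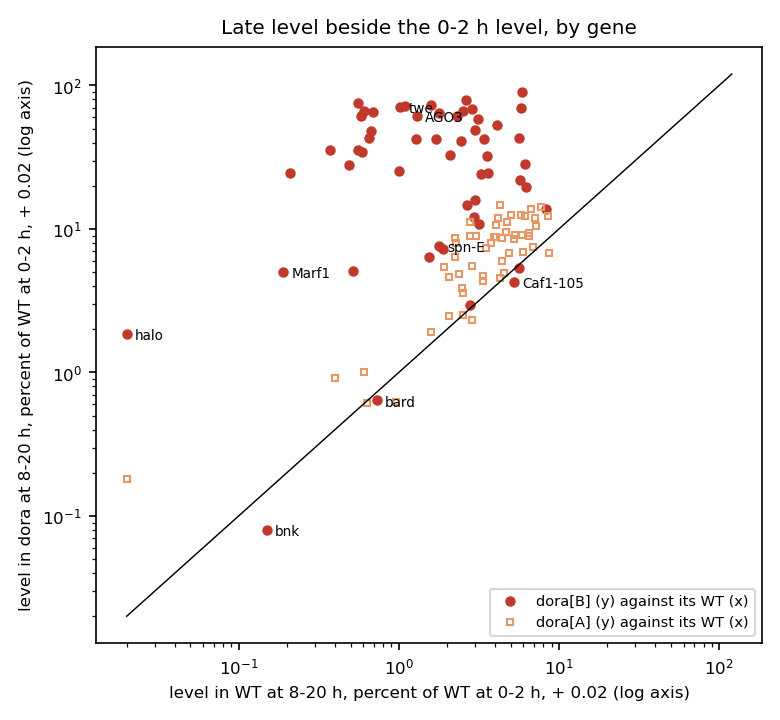
Mean level of each gene over the 6 libraries from 8 to 20 h as a percent of the WT level at 0-2 h (0.02 was added, both axes log), with dora on the vertical axis and its WT on the horizontal axis. Circles are dora[B] and squares dora[A], and the labelled points are dora[B]. Most circles lie far above the diagonal of equal levels, and Caf1-105, Hen1, bard and bnk lie under it.

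In the same fit, 17.8% of all genes rose and 24.7% fell, and other maternal mRNAs are read against these shares. In 67 genes that met the conditions on 0-2 h and the late windows but were down to 0.25 of their 0-2 h level or less at 2-4 h, 9 of 62 tested rose and 3 fell in dora[B] embryos, with a median of 0.04. Their median level at 8-12 h was 2.92 and 2.82 CPM in dora[B] libraries and 1.87 and 2.38 CPM in WT libraries. In the 22 genes between these and the 54, at 0.25 to 0.5 of the 0-2 h level by 2-4 h, 10 of 21 tested rose and none fell, with a median of 0.82. In 1383 genes kept at 0.5 or more at all later stages, 225 rose and 499 fell.

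Of the 12 egg genes left out by name, 7 rose and none fell in dora[B] embryos, with a median of 2.87. smg, the RNA-binding protein that triggers early clearance, had between 1738 and 3925 CPM in the 6 dora[B] libraries and between 88.5 and 122 CPM in the 6 WT libraries (4.56, SE 0.22). wisp, the poly(A) polymerase of the egg, had between 345 and 787 CPM in dora[B] libraries and between 1.81 and 10.3 CPM in WT libraries (6.36, SE 0.50). The counts of the following lists stand beside 17.8% of all genes that rose and 24.7% that fell. Among cell cycle and meiosis genes without twe, 22 of 34 rose and 1 fell, and among chromatin and early genome activation genes 10 of 16 rose and 1 fell. Among maternal patterning signals without tor, 7 of 15 rose and 2 fell. Of spindle and centrosome genes 10 of 20 rose and 1 fell, of translation control and mRNA decay genes without spn-E 9 of 28 rose and 8 fell, and of ubiquitin ligase genes without muskelin 5 of 15 rose and 4 fell. These lists were written with earlier results of these data known. Among germ cell markers without AGO3 and bam, 3 of 11 rose and 3 fell.

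Markers of embryo age are read against the same shares, 17.8% of all genes that rose and 24.7% that fell, with a median of -0.38. Of 23 late embryo markers, such as cuticle and muscle genes, 17 fell in dora[B] embryos and none rose, with a median of -0.72. Their summed level was 6296 and 5795 CPM in dora[B] libraries against 6429 and 7440 CPM in WT at 8-12 h, 20416 and 14176 CPM against 42559 and 35106 CPM at 12-16 h, and 34115 and 59155 CPM against 72083 and 72301 CPM at 16-20 h. Of the early zygotic genes other than bnk, slam and halo, 11 of 31 tested fell and none rose. Their median of -0.52 was nearer to that of all genes. The 17 eggshell and follicle cell markers summed to 1.8 to 7.0 CPM in dora[B] libraries and 3.9 to 8.9 CPM in WT libraries, and the median marker was at 0 in all but a single WT library. The part of embryo age in the rise of the 54 genes was not tested.

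Window by window, 43 of the 53 genes tested rose in dora[B] embryos at 8-12 h (6.68% of all genes), 44 at 12-16 h (11.3%) and 39 at 16-20 h (10.2%). None fell, beside 0.193%, 12.7% and 5.44% of all genes. Of these, 36 rose in all 3 windows. The 53 include the 6 genes that passed the filter on low counts only through dora[B] libraries, and the window counts were not made without them. Both dora[B] libraries were above both WT libraries in 48 of the 54 genes at 8-12 h, 47 at 12-16 h and 49 at 16-20 h, beside 24.9%, 26.0% and 24.4% of all genes tested. They were below both in 3, 1 and 0 genes, beside 35.9%, 36.7% and 32.7%. With 2 libraries against 2, these counts depended on single libraries. At 8-12 h, 7 genes rose when WT replicate 1 was left out, 4 when WT replicate 2 was, 23 when dora[B] replicate 1 was and 25 when dora[B] replicate 2 was. At 12-16 h, 23 rose when WT replicate 2 was left out. At 16-20 h, 6 rose when WT replicate 1 was left out and 0 when WT replicate 2 was. Fitted to the 4 libraries of that window alone, 0 of the 54 genes were called at 16-20 h. The count for the mean of the windows stayed between 45 and 49 whichever library was left out.

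The effect of dora[B] differed between 16-20 h and 8-12 h for a single gene of the 53, where 0.446% of all genes rose and 1.16% fell in this test. This was Cyp6v1, a cytochrome P450 gene (X, 20657122 to 20661425). It had 36.3 and 31.2 CPM in dora[B] libraries against 1.61 and 2.38 CPM in WT at 8-12 h, 24.2 and 46.6 CPM against 2.59 and 2.16 CPM at 12-16 h, and 24.0 and 16.1 CPM against 11.8 and 11.5 CPM at 16-20 h. The effect at 16-20 h minus that at 8-12 h was -3.76 (SE 0.56, adjusted p = 0.00718 with edgeR). The smaller effect at 16-20 h went with a higher WT level there. This call was lost without either WT or either dora[B] library at 8-12 h, without either WT library at 16-20 h, and without WT replicate 2 at 12-16 h, each of which left 0 genes called. Without dora[B] replicate 2 at 16-20 h, 4 genes were called.

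In dora[A] embryos none of the 51 genes tested passed the test in the mean over the windows, and no gene of the 11153 tested did (0.0%). At an unadjusted p under 0.05 stood 4 of the 51, and DESeq2 called none of the 54. The values were mostly positive, in 48 of 51 genes, with a median of 0.95 against 0.00 over all genes. At 8-12 h and 12-16 h this rested on the 2 replicate 1 libraries. At 16-20 h, a window without them, 41 of 51 values were positive, with a median of 0.66 against -0.06 over all genes. tor had 51.7 and 1.75 CPM in dora[A] libraries against 3.92 and 15.1 CPM in WT at 8-12 h, 41.2 and 0.25 CPM against 6.02 and 3.69 CPM at 12-16 h, and 15.4 and 14.7 CPM against 6.02 and 4.06 CPM at 16-20 h. Replicate 1 was high and replicate 2 low in the first 2 windows, and both were above WT in the last. twe had 68.1 and 1.34 CPM in dora[A] libraries against 7.57 and 22.8 CPM in WT at 8-12 h, and 29.8 and 22.2 CPM against 9.5 and 8.44 CPM at 16-20 h. Without the replicate 1 dora[A] libraries of 8-12 h and 12-16 h, the median over the genes tested turned to -0.77. These libraries held the highest sums of the 54 genes in dora[A], so a lower median follows from leaving them out.

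The 16-20 h window is the one in which the dora[A] replicates were alike. The 54 genes summed to 340 and 320 CPM in dora[A] libraries and to 210 and 200 CPM in WT libraries, and 27 of the 54 were above WT in both dora[A] libraries and 1 below, beside 16.2% and 14.1% of all genes tested. None of the 51 genes tested passed edgeR's test in this window (0 at an unadjusted p under 0.05, and none with DESeq2). None passed at 8-12 h or 12-16 h either (0 and 1 at an unadjusted p under 0.05, none with DESeq2), and of all genes a single one did, lower at 8-12 h (0.00897%). The egg genes left out of the rule followed the same libraries, summing to 1276 and 131 CPM in dora[A] libraries against 231 and 685 CPM in WT at 8-12 h, 1259 and 118 CPM against 314 and 231 CPM at 12-16 h, and 475 and 460 CPM against 244 and 296 CPM at 16-20 h. Late embryo markers summed to 7628 and 12546 CPM in dora[A] libraries against 9345 and 8155 CPM in WT at 8-12 h, so the library high in the 54 genes had the lower value. Their part in these values was not tested.

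The effects of the alleles were compared in a joint fit of both tables, added after the data had been seen. The effect of dora[B] exceeded that of dora[A] in 39 of the 52 genes tested and was smaller in none, beside 11% and 6.07% of all 11563 genes. Genes that passed the filter of the dora[B] table only through dora[B] libraries were not left out of this count. For tor the difference was 4.40 (SE 1.17, adjusted p = 0.0208), for AGO3 4.42 (SE 0.99, adjusted p = 0.00958) and for muskelin 3.50 (SE 0.66, adjusted p = 0.0042), all with edgeR's quasi-likelihood test. The tables are separate, so the allele cannot be told apart from whatever else differed between them. The median difference over the genes tested was 3.46, and 4.94 without the 2 dora[A] libraries named above. Those 2 had been singled out for their high sums of the 54 genes. The larger difference without them follows from that choice and is no check of the result. The call for tor was lost when WT replicate 2 at 8-12 h was left out of either table.

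In the WT embryos of the dora tables, which the rule did not use, most of the 54 genes were already low at 8-12 h. From 8-12 h to 16-20 h, none rose and 4 of 51 fell in WT of the dora[A] table, where 32.1% of all genes rose and 27.3% fell. These were Elba2 (-3.56, SE 1.27), Caf1-105 (-3.13, SE 0.45), FBgn0267727 (-2.52, SE 0.41) and CG6985 (-2.43, SE 0.79). In the WT embryos paired with dora[B], 2 rose and 10 of 53 fell, beside 30.7% and 27.1% of all genes. FBgn0267727 (-3.30, SE 0.26), rpk (-3.18, SE 0.57), Caf1-105 (-3.11, SE 0.34), CG6985 (-3.07, SE 0.63) and mus81 (-2.40, SE 0.80) fell most, and Sptr, the sepiapterin reductase gene (3.77, SE 1.08), and Cyp6v1 (2.84, SE 0.41) rose. Without a single library the counts lay between 2 and 7 in the first table, with 7 without either dora[A] library at 8-12 h and 2 without WT replicate 2 at 16-20 h. In the second table they lay between 6 and 15, and the lowest was that without WT replicate 2 at 8-12 h. Among the genes named, the calls of CG6985 and Elba2 in the first table were lost without either WT library at 16-20 h, that of CG6985 also without WT replicate 1 at 8-12 h, and that of Elba2 also without WT replicate 2 at 8-12 h, dora[A] replicate 1 at 16-20 h or any filter. In the second table, Sptr lost its call without WT replicate 1 at 16-20 h or WT replicate 2 at 8-12 h, and mus81 without either WT library at 8-12 h or WT replicate 2 at 16-20 h.

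The genes with the highest mean CPM at 16-20 h over the WT libraries of both tables pooled were muskelin, FBgn0267727, Cyp6v1, rig and CG32512. In WT of the dora[B] table alone, qin and spn-E were above CG32512. muskelin had 18.8 and 22.9 CPM in WT of the dora[A] table and 14.8 and 8.97 CPM in WT of the dora[B] table. Cyp6v1 had 11.4 and 12.9 CPM in the first and 11.8 and 11.5 CPM in the second.

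In CR43432 mutants the 54 genes summed to 655 and 748 CPM against 352 and 698 CPM in WT at 8-12 h, to 207 and 317 CPM against 225 and 380 CPM at 12-16 h, and to 247 CPM against 259 CPM at 16-20 h. WT line 1 at 8-12 h was the lowest of the 4 libraries of that window. Over 8-12 h and 12-16 h none of the 54 passed edgeR's test (3 at an unadjusted p under 0.05, none with DESeq2), beside 0.0436% of all genes higher and 0.0262% lower. The rule asked for low values in these WT libraries, so this is a description. The CR43432 transcript itself, lncRNA:marge, had 196 and 177 CPM in mutants against 245 and 230 CPM in WT at 8-12 h, and 22.4 and 11.8 CPM against 23.7 and 26.3 CPM at 12-16 h (-0.46, SE 0.26, adjusted p = 1 with edgeR).

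Some of the 54 genes are also transcribed in S2 cells, where 35 had a mean of at least 1 CPM in the WT clones. Between dora and WT clones 34 were tested, none rose and 1 fell, beside 0.96% and 1.77% of all 7294 genes. This was CG7730, with 4.57, 5.24 and 6.75 CPM in dora clones against 16.3, 9.79 and 13.4 CPM in WT clones (-1.10, SE 0.21, adjusted p = 0.043 with edgeR). Under GFP RNAi in the RNAi set, CG7730 had 15.7, 8.76 and 19.52 CPM in dora clones and 12.97, 17.41 and 15.55 CPM in WT clones. These groups overlapped, so the fall was not seen there. CG7730 overlaps Ilp8, and reads of the pair cannot be told apart. Without WT replicate 2, 6 of the genes were called, and without WT replicate 1 or 3 or any of the dora clones none was. At an unadjusted p under 0.05 stood 11 of the 34, and DESeq2 called 1 gene higher and 5 lower. Dora mRNA had 106, 121 and 106 CPM in dora clones and 139, 128 and 135 CPM in WT clones (-0.11, SE 0.11, adjusted p = 0.564).

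After RNAi against Ago1, which encodes the Argonaute protein of fly miRNAs, 8 of 37 genes tested rose and 8 fell in WT clones, where 25.6% and 28.4% of all 7861 genes did so. With the clones as a block, 10 rose and 13 fell, beside 33.7% and 36.1% of all genes. In both fits the share called was near that of all genes. The same clones had both treatments, and the changes and SE below come from the fit without the block. AGO1 mRNA itself had 216, 238 and 228 CPM after Ago1 RNAi and 746, 496 and 600 CPM after GFP RNAi. The largest increases were those of CG17163 (15.2, 11.4 and 16.1 CPM after Ago1 RNAi against 6.44, 6.75 and 5.55 CPM after GFP RNAi, 1.23, SE 0.22), twe (28.4, 23.2 and 28.0 CPM against 14.4, 12.0 and 14.1 CPM, 1.02, SE 0.12), muskelin (35.4, 28.8 and 33.5 CPM against 16.7, 17.4 and 16.5 CPM, 1.00, SE 0.11), GstO1, a glutathione S-transferase (0.71, SE 0.13), and Cyp6v1 (0.63, SE 0.11). CR14033 (-3.96, SE 1.09), CG4570 (-3.22, SE 0.66), CG7384 (-3.08, SE 0.51), Elba2 (-2.29, SE 0.64) and dob (-1.62, SE 0.27) fell most. CG4570 had 0.33, 1.54 and 1.18 CPM after Ago1 RNAi against 7.21, 12.2 and 8.73 CPM after GFP RNAi. CR14033, CG7384 and Elba2 were low even after GFP RNAi, at 0.72 to 1.68, 1.27 to 1.72 and 0.63 to 1.33 CPM. After Ago1 RNAi they had 0 to 0.12, 0.05 to 0.27 and 0.1 to 0.4 CPM, so their folds rest on few reads. All 10 genes named here for their largest changes after Ago1 RNAi rose in dora[B] embryos, but so did 49 of the 53 genes tested there.

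**Figure D5:**
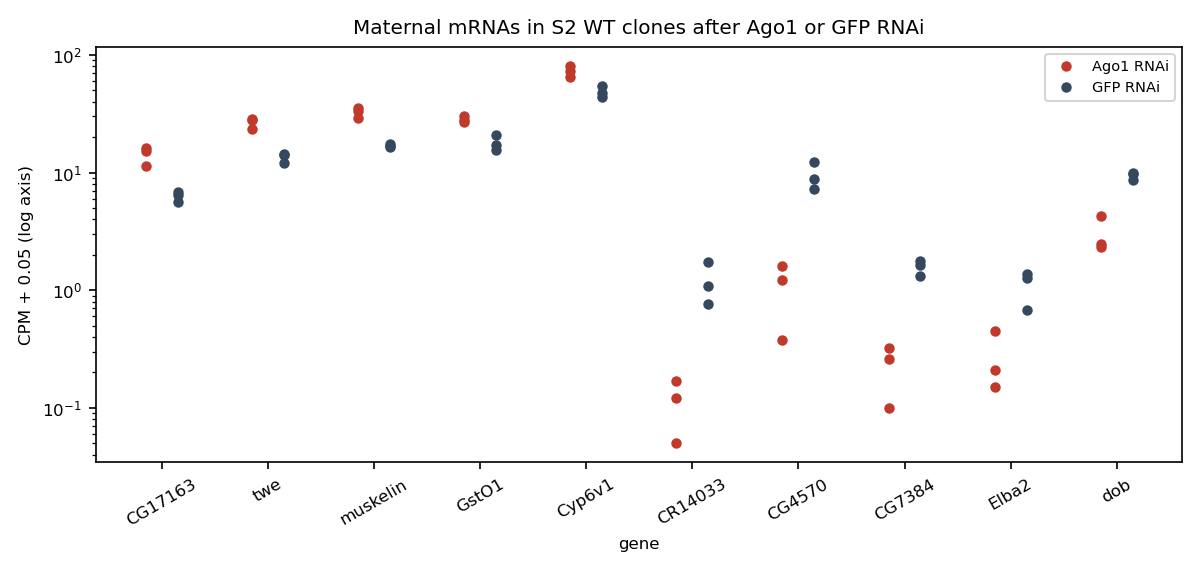
CPM + 0.05 (log axis) of the 10 named genes in 3 WT clones of S2 cells after Ago1 RNAi (left of each pair) and GFP RNAi (right). Each point is a clone. The 2 groups do not overlap for any of these genes.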

How the data were processed

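The deposited values are counts by the authors, whole numbers per gene with 1 column per library. The submitters' processing notes name dm6, STAR 2.4 and HTSeq without a role, and the strand setting of the counting is not given in the sources used here. Per the labels' protocols, poly(A) libraries were made with a directional kit and read as single ends, and those of the RNAi set as paired ends after mRNA capture. Rows that name no gene held 6.02% to 20.6% of a library and were left out.

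CPM were computed over gene rows. Each table was fitted on its own with edgeR 4.0.16 (R 4.3.3; quasi-likelihood, robust, TMM scaling, filterByExpr on the groups), a coefficient being given to every group, and p-values were adjusted by Benjamini-Hochberg over all genes tested and called under 0.05. SE was taken as |log2 fold change| over the root of the F statistic. Alternatives were DESeq2 1.42.0, RLE scaling, no filter, the replicate block, the compared groups alone and each library left out. No replicate pair agreed within sampling noise. Named genes are the 10 members highest at 0-2 h, the 10 largest non-overlapping changes per allele and direction, the 5 largest changes per direction over time and in S2 cells, the members on gene lists and the 5 highest at 16-20 h; Hen1, armi, del, vas and further genes of the piRNA list, BoYb, dah, rpk, the DNA repair genes and CG32625 were named after their values were seen. The members and lists were chosen with earlier results of these data known. The S2 clones of the RNAi set carry the same numbers under both treatments, and same-numbered clones deviated together, so their numbers pair the samples. Symbols were found for 53 of the 54 genes. The scripts were tested on simulated data. Small RNA libraries and trigger lines were not used here.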

Additional observations from a re-analysis of the deposited data

Results flagged for a closer look

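The effects of the alleles differed, by a test of the difference itself in a joint fit with edgeR, in 39 of the 52 genes tested, all with the larger effect in dora[B]. Genes that passed the filter of the dora[B] table only through dora[B] libraries were not left out of this count. Among the genes with the largest changes in dora[B], the dora[B] effect minus the dora[A] effect was 5.70 for CG5568, 5.54 for CG31517, 5.31 for CR14033, 5.30 for CG44005 and 5.12 for slam on the log2 scale. It was 4.87 for Trf4-2, 4.46 for twe, 4.40 for tor, 4.28 for dob and 3.91 for lncRNA:CR43836. The WT libraries of the dora[B] table held 0 to 0.23 CPM of CG31517 and 0 to 0.67 CPM of Trf4-2, and both passed the filter on low counts there only through dora[B] libraries. Those WT libraries held at most 1.13 CPM of CG5568, CG44005, dob and lncRNA:CR43836, so their folds also rest on few reads. The adjusted p-values of these 10 with edgeR lay between 0.00595 (CR14033) and 0.041 (lncRNA:CR43836). These 10 genes were picked for the largest changes in dora[B] without overlap with WT in any window. Their lack of overlap and large differences thus follow in part from that choice and are no separate support. The calls of Trf4-2, dob, lncRNA:CR43836 and twe were each lost without 1 or another of several libraries of either table, that of tor without WT replicate 2 at 8-12 h of either table, and that of CG31517 without WT replicate 1 at 16-20 h of the dora[A] table. The tables were made separately, so allele and table cannot be told apart.

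The effect of dora[B] on Cyp6v1 differed between 16-20 h and 8-12 h by -3.76 (SE 0.56), and the 2 dora[B] and 2 WT libraries did not overlap in any window. The call was lost, with 0 genes called, when any of 7 single libraries was left out: either WT or either dora[B] library at 8-12 h, either WT library at 16-20 h, or WT replicate 2 at 12-16 h.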

How the results depend on the processing

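The count of genes that rose in dora[B] over the mean of the windows kept its direction and stayed at 48 to 49 under RLE scaling, no filter, DESeq2 and the replicate block, and at 45 to 49 when a single library was left out. When single libraries were left out, the counts of genes called ranged from 4 to 45 for dora[B] at 8-12 h, from 23 to 45 at 12-16 h and from 0 to 43 at 16-20 h. They ranged from 0 to 4 for the difference of the dora[B] effect between 16-20 h and 8-12 h, from 27 to 43 for the difference between the alleles, from 2 to 7 and from 6 to 15 for 16-20 h against 8-12 h in WT paired with dora[A] and dora[B], from 0 to 6 for dora against WT S2 clones and from 15 to 17 for Ago1 RNAi. With the compared libraries fitted alone, dora[B] at 16-20 h gave 0 calls. In WT paired with dora[A], 4 genes were called for 16-20 h against 8-12 h, 7 with the replicate block, 9 with the compared groups alone and 9 without the 2 dora[A] libraries that stood apart. The difference of the dora[B] effect between windows gave 3 calls without a filter and 4 with DESeq2, and dora against WT S2 clones gave 5 without a filter, 0 with the replicate block and 6 with DESeq2. The cause of these shifts was not tested. dora[A] and CR43432 mutants gave 0 calls in each of these settings. The rule found 35 genes with a level at 2-4 h of at least 0.75 of that at 0-2 h, 16 with late levels of at most 0.05, 18 with all conditions met in each WT line, and 47 without replicate 1; leaving out replicate 2 could not be run, since 16-20 h has line 2 only. Same-numbered samples of the dora, CR43432 and S2 dora tables did not deviate together in every pair, so the block results above rest on numbers alone. With the clones as a block, which their numbers pair, Ago1 RNAi gave 23 calls against 16. Over the alternatives of the genes named for their tests, 828 values kept their direction and call, 88 lost the call and 0 reversed. The median of all genes in dora[B] was -0.18 with RLE and -0.03 with TMM at 8-12 h, -0.19 and -0.43 at 12-16 h, and -0.36 and -0.48 at 16-20 h. The joint fit and the fits without the 2 dora[A] libraries were chosen after seeing the data.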
